A study of Homo sapiens with 7 samples.

Results

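The resting transcriptome of SUM159 cells carrying a control hairpin was described from the 2 arrays named Ctrl shRNA, of 7 arrays in the series. SUM159 is an established human line from a triple-negative breast cancer with mesenchymal features, a tumour class defined by missing estrogen receptor, progesterone receptor and HER2 amplification. The cells carried a lentiviral vector that makes the microRNA-embedded hairpin CTRL miR in the presence of doxycycline, grew as 2D cultures in F-12 medium with fetal calf serum, insulin and hydrocortisone, and had received doxycycline for 15 days. The remaining arrays, 2 of SHP2 sh1 and 3 of SHP2 sh2, were not compared here. Both control arrays therefore shared vector, doxycycline, serum, insulin and the steroid hydrocortisone, and they stood for 1 cell line, with no array of untransduced or doxycycline-free cells. The labels did not say whether the 2 arrays came from separate cultures, so the spread between them may be technical, and with 1 group of 2 arrays no test was made.

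Human Gene 1.0 ST arrays measure a gene through short probes along its transcript, and the deposited value of a probe set is on a log2 scale, so that 1 unit is a doubling of brightness. A probe in this text is such a set. All 18417 genes with a probe of a single symbol were ranked by their mean over the 2 arrays, from 2.33 to 13.02 with a median of 6.98. Brightness depends on the probe as well as on the RNA, so a rank places a gene on this array and does not give the order of RNA amounts.

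A gene was taken as above background when it exceeded, on both arrays, the 95th percentile of 360 olfactory receptor genes, a family used by sensory neurons. This limit was 6.24 on replicate 1 and 6.26 on replicate 2, and 11756 genes (63.8%) lay above it on both arrays, 595 on 1 array and 6066 on neither. A second reference was made of taste receptors, keratin-associated proteins, beta-defensins, cone opsins and lens crystallins, families of narrow use that were taken as silent. Some beta-defensins are products of epithelia, and whether every gene of this set was silent in SUM159 was not tested. The 95th percentile of these 127 genes was 8.31 on replicate 1 and 8.30 on replicate 2, and 49 of them lay above the olfactory receptor limit. Only 3935 genes (21.4%) exceeded both limits on both arrays, and a gene between the limits lay in a range that the second reference also reached. Counts are therefore given against the lower limit, then against both, and the brightest 10% of genes, 1842 with a mean of at least 9.21, are named as such. Each count of a gene list is to be read beside the shares of all genes, 63.8% and 21.4%.

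**Figure D1:**
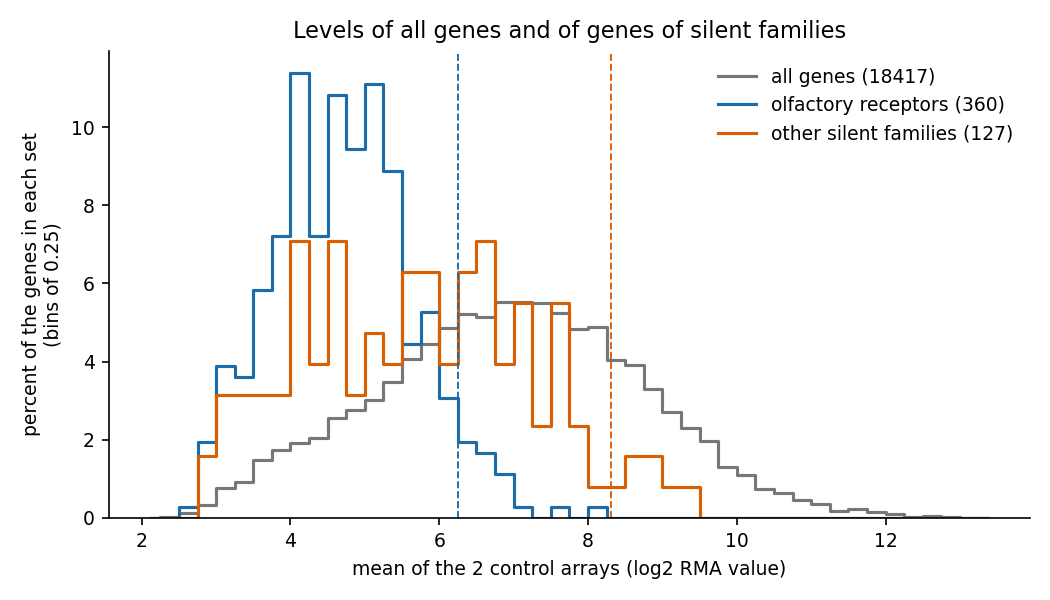
Distribution of the mean log2 value of the 2 control arrays (x axis) as the percent of genes per bin (y axis) for all 18417 genes, 360 olfactory receptors and 127 genes of other silent families, with a dashed line at the 95th percentile of each silent set, averaged over both arrays. The olfactory receptors had a median of 4.70 and the other silent families one of 5.72, and much of the distribution of all genes fell between the dashed lines.

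The brightest genes were those of the cytoskeleton, protein synthesis, glycolysis and the extracellular matrix. HSPA8, a constitutive chaperone, ranked 1 at 13.06 on replicate 1 and 12.98 on replicate 2. Cytoplasmic actin ACTB gave 13.02 and 12.95, ACTG1 12.70 and 12.77, and the tubulin gene TUBB 12.84 and 12.73. Metallothionein MT2A, which binds zinc and copper, ranked 3 at 12.93 and 12.92. Of the 25 brightest genes, 3 were secreted products of the kind mesenchymal cells make. FN1, which encodes fibronectin, ranked 6 at 12.75 and 12.82. TIMP1, an inhibitor of matrix metalloproteinases, ranked 13 at 12.71 and 12.33, and SPARC, a collagen-binding matrix protein, ranked 16 at 12.21 and 12.28. The other named genes of this set were GAPDH, EEF1A1, SNORA23, H1-4, RPL13AP5, RPL18, ENO1, RNU2-1, RPS3, LDHA, TMSB10, ARPC2, SNORD13, TUBB4B, SNORD13P3, RPL41 and RPL8, with means from 12.11 to 12.90. RPL13AP5 and SNORD13P3 are close copies of RPL13A and SNORD13, and RNU2-1 and TUBB have several probes of like sequence, so their signal may be shared with relatives. Of 58 cytosolic ribosomal protein genes, 56 lay above the lower limit, 50 above both and 41 in the brightest 10%. Small nucleolar RNAs, which guide the chemical modification of ribosomal RNA, held 23 of the brightest 10% among 175 measured, a share of 13.1%. Of these RNAs, 51.4% were above the lower limit, a smaller share than the 63.8% of all genes.

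Steroid hormone receptors are ligand-activated transcription factors, and the estrogen and progesterone receptors define the luminal classes of breast cancer. Of 5 measured, 1 was above background, and 1 further gene of the list was not analysed here. No level is given here for the androgen receptor. The glucocorticoid receptor NR3C1 gave 9.28 and 9.07, above both limits. The estrogen receptor ESR1 gave 5.60 and 5.77 and its second probe 5.80 and 5.82. The progesterone receptor PGR gave 4.51 and 4.55, ESR2 4.96 and 4.84, and the mineralocorticoid receptor NR3C2 5.89 on both arrays. ESR1 and PGR thus lay at background on both arrays, while the gene of the receptor for the hydrocortisone in the medium did not. Among 39 nuclear receptors, 20 were above the lower limit and 6 above both, namely RXRA, the shared partner of many of them, at 9.41 and 9.46, NR3C1, NR2C2, NR2F6, THRA and PPARD.

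In the EGF receptor family, which drives epithelial growth, EGFR gave 9.58 and 9.80 and was in the brightest 10%. ERBB2, the gene of HER2, gave 7.81 on both arrays, between the limits. ERBB3, a partner that needs another family member to signal, gave 5.43 and 5.44, and ERBB4 5.38 and 5.43, both at background. SUM159 controls thus had 1 bright member of 4.

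Of 53 receptor tyrosine kinases measured, 26 (49.1%) were above the lower limit, a smaller share than of all genes (63.8%). Above both limits were 11 (20.8%), close to the 21.4% of all genes, and 6 (11.3%) were in the brightest 10%. MET, the receptor of hepatocyte growth factor, was the brightest at 9.85 and 10.00. RYK, a WNT co-receptor, gave 9.76 on both arrays, and AXL, the receptor of GAS6 and a gene often seen in mesenchymal tumour cells, 9.81 and 9.68. PDGFRA, a receptor of fibroblasts and other stromal cells, gave 9.52 and 9.10, whereas its relative PDGFRB gave 7.45 and 7.33. IGF1R, the IGF receptor, gave 9.19 and 9.28 with the probe used but 6.47 and 6.68 with its other probe, so its place depended on the probe. The insulin receptor INSR, at 6.27 and 6.40, and FGFR1, at 6.45 and 6.23, sat at the lower limit. The vascular receptors KDR, at 5.28 and 5.38, and FLT1, at 4.61 and 4.50, and the stem cell factor receptor KIT, at 4.09 and 4.28, were at background.

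Among receptors of the interleukin 6 family, the signalling subunits were bright. OSMR, the oncostatin M receptor, gave 10.94 and 11.35, and its signalling partner IL6ST, also called gp130, 10.83 and 10.61. LIFR gave 8.57 and 8.76, above both limits, and IL6R 7.40 and 7.47, between them. The interleukin 1 co-receptor IL1RAP, at 9.92 and 10.24, was in the brightest 10%, and IL1R1, at 8.30 and 8.80, lay on either side of the upper limit on the 2 arrays. IL13RA1 and IL4R were, like IL7R, also in the brightest 10%. In this list of 43 receptors, 20 were above the lower limit, 9 above both and 18 at background. Of receptors known from lymphocytes, IL7R gave 9.84 and 9.34, whereas IL2RA gave 5.73 and 5.41, at background.

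Of 21 chemokine receptors measured, 15 were at background, 2 were above the lower limit on 1 array, 4 were above it on both and 1 was above both limits. CXCR1, at 4.60 and 4.83, and CXCR2, at 4.13 and 4.26, are the receptors of interleukin 8. CXCR4, at 4.72 and 4.88, and ACKR3, at 4.72 and 4.78, are the receptors of CXCL12. All 4 lay under the lower limit on both arrays. CCR10, at 6.84 and 6.72, CCR7, at 6.62 and 6.76, and CXCR3, at 6.72 and 6.56, lay between the limits. Above both was ACKR4, a scavenger receptor of CC chemokines, with 9.66 and 9.83 on the probe used, but its second probe gave 5.00 and 5.41, at background.

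Integrins, which anchor cells to the matrix, held 8 of 25 members in the brightest 10%. The collagen receptor subunit ITGA2 gave 11.76 and 11.39, the fibronectin receptor subunit ITGA5 11.29 and 11.09, and the laminin receptor subunits ITGA3 11.06 and 11.15 and ITGA6 11.05 and 10.90. The shared beta subunit ITGB1 gave 10.42 and 10.37, and ITGB4, the partner of ITGA6 in hemidesmosomes, 10.37 and 10.27. ITGAV and ITGB5 completed the set. The leukocyte subunits ITGAL, at 6.19 and 6.03, and ITGA4, at 4.70 and 4.71, were at background, and 14 of the 25 members were above the lower limit and 10 above both.

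Of 13 receptors of the TGF-beta family, 8 were above the lower limit and 5 above both. TGFBR2, which binds the ligand first, gave 11.11 and 10.64. The kinase it recruits, TGFBR1, gave 8.47 and 8.87, and the co-receptor TGFBR3 7.55 and 7.74, between the limits. BMPR2, at 10.19 and 10.11, and ENG, at 9.66 and 9.39, were in the brightest 10%. All 4 Notch receptors were above the lower limit. NOTCH2 gave 9.80 and 9.70 and NOTCH1 8.76 and 9.11, whereas NOTCH3, at 8.27 and 9.06, and NOTCH4, at 7.45 and 8.39, were each higher on replicate 2 by more than 0.5. Of 13 frizzled receptors and co-receptors, 12 lay above the lower limit and 2 above both, FZD6 at 10.02 and 10.21 and FZD8 at 8.82 and 8.46. FZD7, at 5.91 and 6.01, was at background.

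Breast epithelium has an inner luminal layer, rich in keratins 8 and 18, and an outer basal layer with keratins 5 and 14, and carcinoma cells that undergo epithelial-mesenchymal transition (EMT) lose E-cadherin and gain vimentin, fibronectin and repressors such as SNAI2 and ZEB1. In the control arrays, KRT5, KRT14, FN1 and VIM were in the brightest 10%, while CDH1 and EPCAM were at background. E-cadherin, CDH1, gave 5.32 and 5.19. EPCAM, an epithelial surface adhesion protein, gave 3.62 and 2.89, with 4.98 and 5.01 on its other probe. The tight junction claudins CLDN4, at 5.90 and 6.06, and CLDN7, at 5.99 and 5.86, were under the lower limit on both arrays, and CLDN3, at 7.37 and 7.68, lay between the limits.

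Other junction genes were in the brightest 10%. CLDN1, a sealing claudin, gave 11.88 and 12.09, and the desmosome genes DSG2, DSP and JUP, which tie keratin filaments to the cell border, gave 9.78 and 10.17, 9.15 and 9.35, and 9.44 and 9.73. The scaffold TJP1 gave 9.58 and 9.60 and DSG3 8.89 and 9.64. Of 29 epithelial junction genes, 14 were above the lower limit, 5 above both and 5 in the brightest 10%. Of 23 claudins, 11 were above the lower limit and 2 above both, CLDN1 and CLDN12. Both lists lay under the shares of all genes, 63.8% and 21.4%, at either limit. Of 21 cadherins, 8 (38.1%) were above the lower limit and 3 (14.3%) above both. P-cadherin CDH3, a basal epithelial marker, was the brightest cadherin at 10.18 and 10.35, and N-cadherin CDH2, a mesenchymal one, gave 7.87 on both arrays.

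Of 48 keratins, the intermediate filaments of epithelia, 21 were above the lower limit and 6 above both. KRT5 was the brightest at 11.87 and 12.32. The remaining keratins above both limits were KRT75 at 10.96 and 11.32, KRT8 at 10.90 and 10.70, KRT14 at 10.47 and 10.81, KRT7 at 10.74 and 10.12, and KRT18 at 9.57 and 9.38. These 6 were in the brightest 10%, and the luminal KRT19, at 6.70 and 6.53, was between the limits. Keratins are close relatives, and their probes may share signal.

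The basal and myoepithelial list held 15 of 17 members above the lower limit and 8 above both, including CAV1 at 11.69 and 11.66 and SFN at 10.75 and 10.95, beside 63.8% and 21.4% of all genes. Another 7 genes of this list were not analysed here, TP63 and KRT17 among them. In the luminal list, 13 of 24 were above the lower limit and 7 above both. Members of the luminal list were spread over the whole range. GATA3, at 6.82 and 7.33, and FOXA1, at 6.58 and 6.28, were between the limits, and GRHL2, at 5.10 and 4.84, and ELF5, at 5.26 and 5.07, were at background. XBP1, a regulator of secretory capacity, gave 10.04 and 9.99, and the carbonic anhydrase CA12 10.67 and 11.11.

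**Figure D2:**
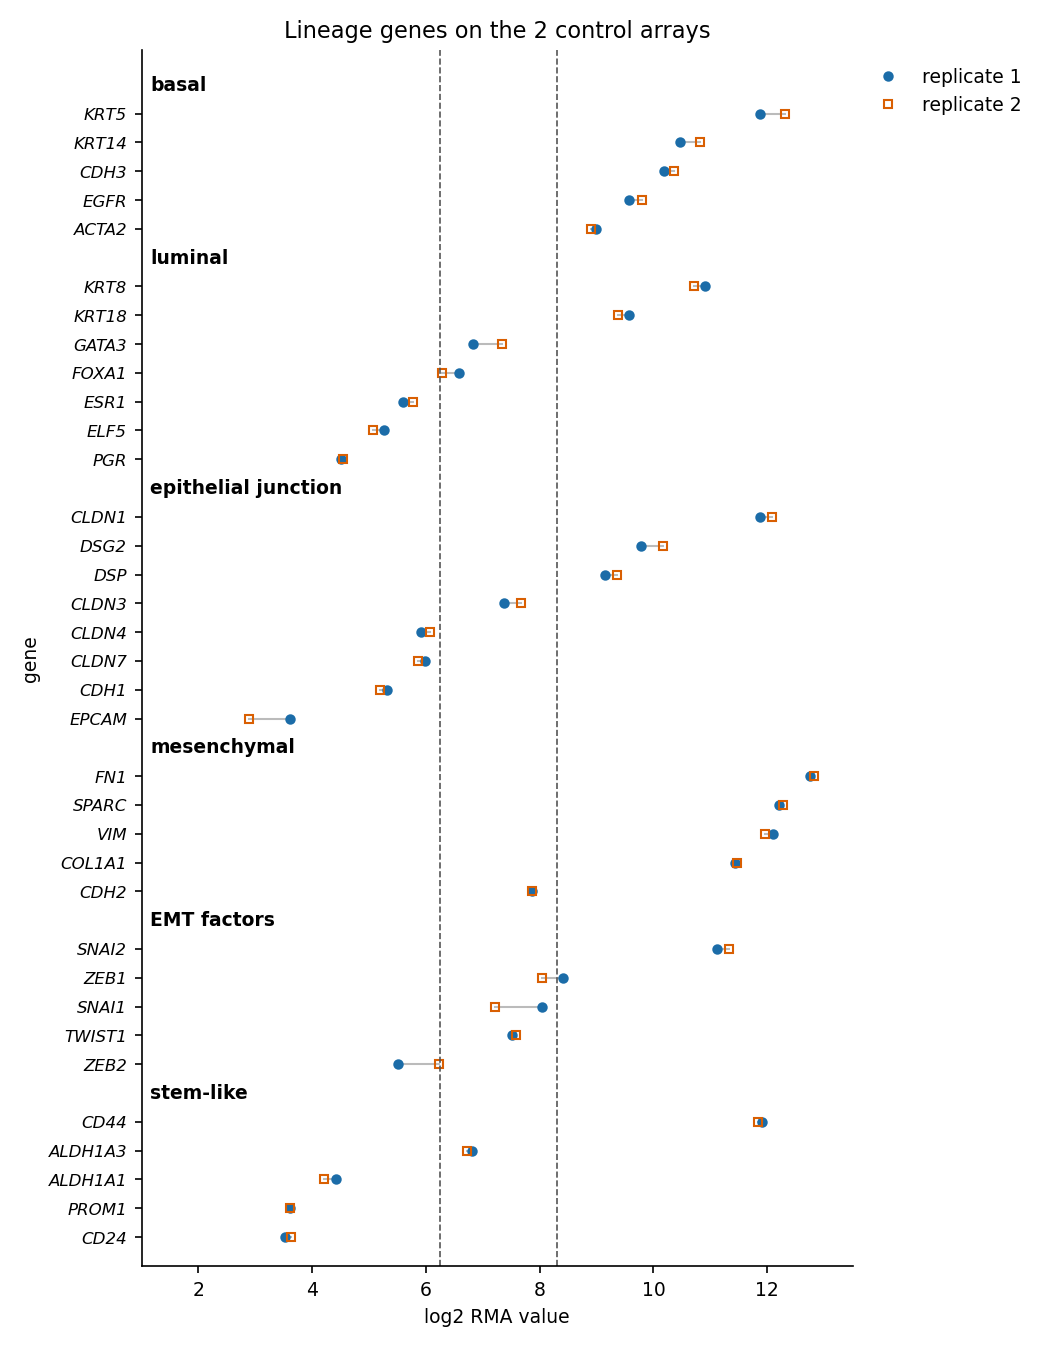
Log2 values (x axis) of lineage genes (y axis) on replicate 1 (filled circles) and replicate 2 (open squares), with dashed lines at the lower and the upper limit, each averaged over both arrays. KRT5, KRT8, CLDN1, FN1, VIM, SNAI2 and CD44 lay at 10 or above, whereas CDH1, EPCAM, ESR1, PGR and CD24 lay under the lower limit.

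Of 28 mesenchymal genes, 25 were above the lower limit, 16 above both and 13 in the brightest 10%. Vimentin, VIM, the intermediate filament of mesenchymal cells, gave 12.10 and 11.96. POSTN, the matrix protein periostin, gave 11.68 and 12.30, TNC 11.70 and 11.82, the collagen gene COL1A1 11.43 and 11.46, and the ectonucleotidase NT5E 10.60 and 10.47. Markers of mature fibroblasts in the same list were at background, namely DCN at 4.62 on both arrays, LUM at 4.06 and 4.14 and THY1 at 6.16 and 6.17. Of 13 factors that drive EMT, 12 (92.3%) were above the lower limit and 3 (23.1%) above both, beside 63.8% and 21.4% of all genes. Among these factors SNAI2 was brightest at 11.12 and 11.32, followed by TCF4 at 9.65 and 10.03 and PRRX1 at 9.14 and 8.98. ZEB1, at 8.40 and 8.05, straddled the upper limit. SNAI1, at 8.04 and 7.21, and TWIST1, at 7.51 and 7.59, were between the limits. ZEB2 had 2 probes that disagreed, with 5.50 and 6.24 on the one used and 9.13 and 9.33 on the other, so its level was not settled.

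Stem-like breast cancer cells are enriched by high CD44 and low CD24 on the surface. Of 12 stem-like breast cell genes measured, 5 (41.7%) were above the lower limit and 3 (25%) above both, beside 63.8% and 21.4% of all genes. CD44, a hyaluronan receptor, gave 11.91 and 11.83, in the brightest 10%, and CD24 gave 3.52 and 3.63, at background. ALDH1A1, at 4.43 and 4.21, and PROM1, at 3.61 on both arrays, were at background, and ALDH1A3 gave 6.80 and 6.72, with 5.95 and 6.03 on its other probe. MYC gave 10.09 and 10.31.

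Several families of developmental regulators had no member above both limits, beside 21.4% of all genes, although the GATA list held only 6 genes. Of 27 HOX genes, 12 were above the lower limit and none above both, the highest being HOXD1 at 7.30 and 7.25. Of 19 SOX genes, 11 were above the lower limit and none above both, with SOX9 at 8.12 and 7.92, SOX4 at 7.88 and 7.96 and SOX2 at 5.47 and 5.53. All 6 GATA factors were above the lower limit and none above both, GATA6 giving 8.05 on both arrays. GATA1, a factor of red cell precursors, gave 6.93 and 6.84, close to GATA3. Of 39 forkhead genes, 29 were above the lower limit and 9 above both, with FOXJ3, FOXK2 and the cell cycle factor FOXM1, at 9.41 and 9.24, in the brightest 10%. In the ETS family, 20 of 26 were above the lower limit and 4 above both, ETS2 at 10.16 and 10.52, ELF1 at 9.40 and 9.83, ELK3 at 9.63 and 9.33 and ETS1 at 8.63 and 8.65. Of 17 AP-1 genes, which respond to growth factor signalling, 16 were above the lower limit and 6 above both, led by FOSL2 at 9.92 and 10.14, with JUN at 8.95 and 9.50 and FOSL1 at 8.92 and 8.76. FOS, at 7.21 and 7.33, was between the limits.

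MicroRNA genes belong to the same contrast, since the miR-200 family targets ZEB1 and ZEB2 transcripts, while miR-221 and miR-222 are known from basal breast cancers. The array carries probes at the genes, which see the precursor or its host transcript and not the mature RNA. The mature sequences (RefSeq, GRCh38.p14) are shown to group the genes by seed, bases 2 to 8, given in capitals.
hsa-miR-221-3p: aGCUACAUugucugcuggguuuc
hsa-miR-222-3p: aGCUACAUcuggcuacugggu
hsa-miR-21-5p: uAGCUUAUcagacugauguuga
hsa-miR-200b-3p: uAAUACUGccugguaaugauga
hsa-miR-200c-3p: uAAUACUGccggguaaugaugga
hsa-miR-429: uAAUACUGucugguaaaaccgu
hsa-miR-200a-3p: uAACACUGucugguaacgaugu
hsa-miR-141-3p: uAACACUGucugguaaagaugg

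The pair miR-221 and miR-222 share one seed and lie close together on the minus strand, at chrX:45746180-45746202 and chrX:45747036-45747056. MIR221 gave 9.03 and 8.66, above both limits, and MIR222 7.94 and 7.39. MIR21, at 7.81 and 7.71, lay between the limits. The seeds of the miR-200 family differ at a single base between miR-200b, miR-200c and miR-429 on one side and miR-200a and miR-141 on the other. MIR200C, at 5.39 and 5.27, MIR141, at 4.24 and 4.02, and MIR200A, at 4.26 and 4.35, were at background. MIR429, at 6.15 and 6.22, was just under the lower limit and MIR200B, at 6.31 on both arrays, just over it. Only 3 of 173 microRNA genes were above both limits, MIR326, MIR221 and MIR339, and a mature sequence was found for 164.

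Chemokines recruit leukocytes, and CXC chemokines with an ELR motif, such as interleukin 8 (CXCL8), attract neutrophils. In the control cells, CXCL8 was the brightest chemokine gene at 11.27 and 11.38. CXCL1 followed at 9.76 and 10.02, CXCL10, an interferon-responsive chemokine, gave 9.69 and 10.00, and CXCL2 gave 8.49 and 8.56. CXCL3 gave 7.43 and 7.84, between the limits. CXCL14, at 8.44 and 10.28, and CXCL12, at 8.53 and 9.48, were both above the 2 limits on each array but higher on replicate 2. Of 17 CXC genes, 11 (64.7%) were above the lower limit and 7 (41.2%) above both, beside 63.8% and 21.4% of all genes. The counts were 7 (30.4%) and 3 (13.0%) of 23 CC, XC and CX3C genes. The bright members there were CCL5, at 10.41 and 9.17, CCL20, at 8.58 and 8.84, and CX3CL1, at 8.91 and 8.37. The monocyte chemokine CCL2, at 5.83 and 6.06, was at background.

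The promoters of the ELR chemokine genes are shown for CXCL8 and CXCL1, the ELR members in the brightest 10%. The 250 bases before the start are given (RefSeq, GRCh38.p14), with capitals for 3 motifs searched on both strands. The AP-1 motif was TGACTCA. For NF-kB the letters were GGAATTTCC. The TATA box was searched as TATAAA.
CXCL8, chr4:73740319-73740568, plus strand: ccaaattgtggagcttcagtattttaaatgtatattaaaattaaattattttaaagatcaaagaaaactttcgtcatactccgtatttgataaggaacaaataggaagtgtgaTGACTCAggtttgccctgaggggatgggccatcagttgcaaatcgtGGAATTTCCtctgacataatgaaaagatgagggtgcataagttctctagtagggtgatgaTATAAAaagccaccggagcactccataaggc
CXCL1, chr4:73869143-73869392, plus strand: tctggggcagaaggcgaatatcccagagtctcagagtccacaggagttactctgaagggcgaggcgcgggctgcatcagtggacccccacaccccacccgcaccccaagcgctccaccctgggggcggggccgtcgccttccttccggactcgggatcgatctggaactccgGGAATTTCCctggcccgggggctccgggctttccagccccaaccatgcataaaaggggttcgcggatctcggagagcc

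The CXCL8 window held all 3 sets of letters, AP-1 from -137 to -131, NF-kB from -91 to -83 and TATAAA from -31 to -26, counted from the base before the start as -1. The NF-kB letters stood from -78 to -70 in CXCL1 and CXCL3 and from -77 to -69 in CXCL2, and from -176 to -168 on the opposite strand in CXCL10. Among 27305 promoters, 0.428% held these NF-kB letters in the same window, 4.16% the AP-1 letters and 11.1% TATAAA. The CCL20 and IL1A windows held TATAAA, IL1A also the AP-1 letters, and those of IL1B and IL6 held none of the 3. Only these exact letters were searched, so variant forms of the sites were not sought and may be present in any window. A match of letters is a description of the window and not of binding.

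Among 45 interleukins and related cytokines, 19 (42.2%) were above the lower limit, 5 (11.1%) above both and 4 (8.9%) in the brightest 10%. The first 2 shares were smaller than those of all genes, 63.8% and 21.4%. IL1A, an alarm cytokine kept in the cell until damage, gave 10.97 and 11.07. IL1B, its inflammasome-processed relative, gave 9.60 and 10.16, IL32 9.61 and 9.58, and IL6 9.37 and 9.60. IL33, another alarm cytokine, gave 8.79 and 9.38. IL11, at 7.05 and 7.14, and LIF, at 6.38 and 6.62, were between the limits. The T cell cytokines IL2, at 3.07 and 3.30, and IL4, at 3.87 and 3.86, were at background. CSF3, the neutrophil growth factor G-CSF, gave 9.17 and 9.07, and CSF1, the macrophage growth factor, 9.21 and 9.37.

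Of 36 ligands of receptor tyrosine kinases, 24 were above the lower limit and 11 above both. VEGFA, which drives vessel growth, gave 10.22 and 10.35 and VEGFC, its lymphatic relative, 10.06 and 10.00. The EGF receptor ligands HBEGF, at 10.33 and 9.89, and EREG, at 9.81 and 10.18, were in the brightest 10%, while TGFA, at 7.79 and 7.71, was between the limits and EGF, at 4.60 and 4.57, at background. HGF, usually a product of stromal cells, gave 10.54 and 9.78. PDGFA gave 9.27 and 9.08, PDGFC 9.02 and 8.72, GAS6 8.35 and 8.91 and FGF2 8.78 and 8.42, FGF2 being the only one of 22 fibroblast growth factors above both limits.

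Secreted factors were also set beside their receptors. In 33 textbook pairs of ligand and receptor, chosen after the levels were seen, 9 had both partners above both limits. They were HGF with MET, GAS6 with AXL, EREG and HBEGF with EGFR, PDGFA and PDGFC with PDGFRA, TGFB1 with TGFBR2, BMP2 with BMPR2 and JAG1 with NOTCH2. In 10 pairs the ligand was above both limits and the receptor under the lower limit on both arrays. They were CXCL8 with CXCR1 and with CXCR2, CXCL12 with CXCR4 and with ACKR3, CCL20 with CCR6, CX3CL1 with CX3CR1, VEGFA with KDR and with FLT1, CSF3 with CSF3R and IL33 with IL1RL1. No pair had a receptor above both limits with a ligand under the lower limit, although OSMR, at 10.94 and 11.35, and LIFR faced OSM, at 6.37 and 6.33, and LIF just above it. The remaining 14 pairs had at least 1 partner between the limits or on both sides of one.

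**Figure D3:**
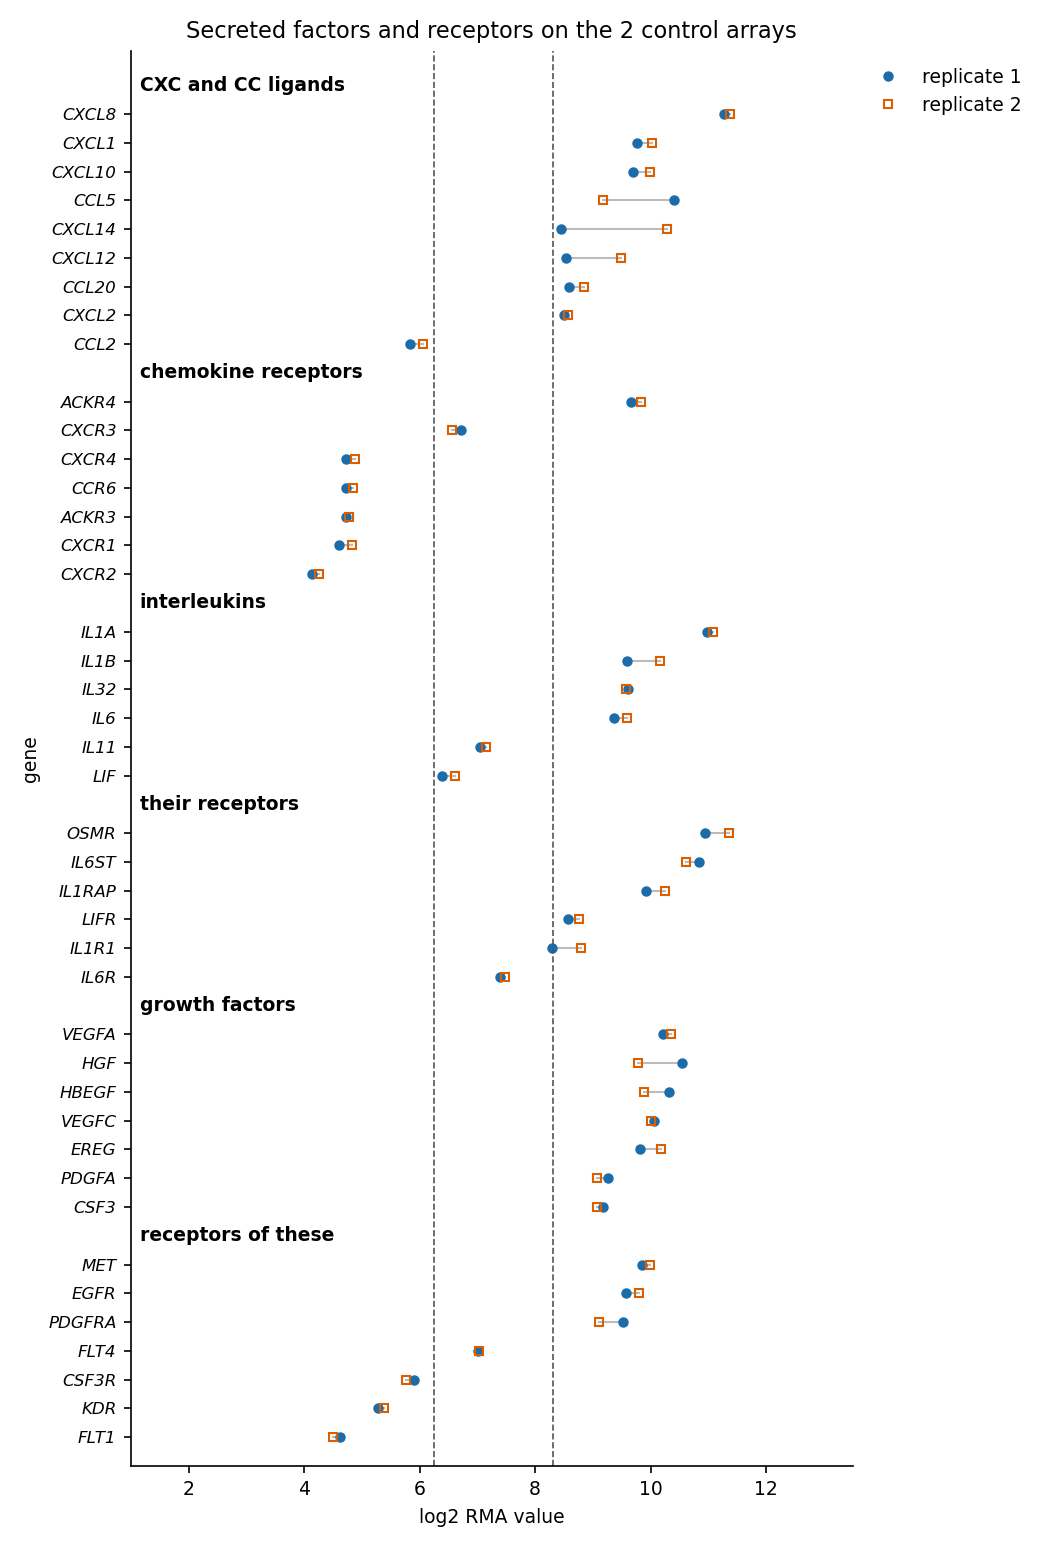
Log2 values (x axis) of secreted factors and receptors (y axis) on replicate 1 (filled circles) and replicate 2 (open squares), with dashed lines at the lower and the upper limit, each averaged over both arrays. CXCL8, at 11.27 and 11.38, lay far to the right of its receptors CXCR1 and CXCR2, both under 5, whereas HGF and MET lay near each other at about 10.

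Matrix metalloproteinases cut the extracellular matrix, and the TIMPs inhibit them. Of 26 measured, 14 (53.8%) were above the lower limit, a smaller share than of all genes (63.8%), and 7 (26.9%) above both, beside 21.4% of all genes. These 7 were in the brightest 10%. The collagenases MMP1, with a mean of 10.79 ± 0.30 (SD, n = 2), and MMP13, at 10.54 and 10.98, the gelatinase MMP2, at 10.59 and 10.81, and its membrane-bound activator MMP14, at 10.39 and 10.21, stood beside their inhibitors TIMP1 and TIMP2, the latter at 9.79 and 9.75. TIMP3 gave 10.79 and 9.91 on the probe used and 8.01 and 7.06 on the other. MMP9, at 6.73 and 6.42, was between the limits and MMP7, an epithelial enzyme, at background with 4.11 and 4.24.

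In the plasminogen system, which activates plasmin around cells, PLAT gave 10.95 and 10.45, PLAU 9.56 and 9.51 and the receptor PLAUR 8.69 and 8.48, all above both limits. Of 43 collagens, 30 (69.8%) were above the lower limit and 9 (20.9%) above both, near the shares of all genes, COL1A1, COL6A3, COL1A2, COL6A1 and COL3A1 being the brightest. COL6A1 gave 9.86 and 9.60, and the basement membrane collagen COL4A1 8.21 and 7.45, between the limits. LAMB1, at 10.60 and 10.72, and LAMC1, at 9.84 and 9.83, led 10 laminins, of which 8 were above the lower limit and 5 above both. Among 35 matricellular and cross-linking proteins, 27 were above the lower limit and 13 above both, with THBS1 at 11.48 and 10.66, TGFBI at 11.04 and 11.06 and VCAN at 10.06 and 10.18 among the 13. CCN2, at 8.10 and 8.04, and CCN1, at 7.82 and 8.17, were between the limits.

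Of 41 TGF-beta family ligands and secreted proteins that bind or inhibit them, 25 were above the lower limit and 8 above both. The follistatin-like FSTL1 gave 10.78 and 10.31, and the ligands BMP2 gave 10.01 and 9.85 and TGFB1 9.21 and 9.29, whereas TGFB2, at 7.93 and 7.66, INHBA, at 7.69 and 7.66, and TGFB3, at 6.74 and 6.58, were between the limits. Of 29 WNT ligands and secreted inhibitors, 17 were above the lower limit and 2, both inhibitors, above both. DKK1 gave 9.80 and 8.40, and DKK3 9.48 and 10.01, with 5.12 and 5.27 on its other probe. None of the WNT ligands in this list of 29 was above both limits, WNT7B being the highest at 8.26 and 7.80 and WNT5A giving 5.80 and 6.39. The Notch ligands JAG1, at 9.83 and 10.01, and JAG2, at 8.71 and 8.62, were above both limits.

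SHP2, the phosphatase PTPN11 that links receptors to RAS, is the target of the hairpins in the other groups, and its gene gave 9.53 and 9.18 in the controls, in the brightest 10%. Its adaptors SHC1, at 10.71 and 10.73, and GRB2, at 8.61 and 8.53, were above both limits, as was SOS1, an exchange factor of RAS, at 9.18 and 9.41. GAB2, a docking protein, gave 6.30 on both arrays, barely over the lower limit, and GAB1 6.69 and 6.66 on the probe used and 8.42 and 8.34 on the other. Of 26 genes of the RAS to ERK cascade, 25 were above the lower limit, 13 above both and 7 in the brightest 10%. DUSP7, at 11.53 and 11.45, and DUSP6, at 9.70 and 9.91, are phosphatases of ERK, and SPRED2, SPRED1 and NF1 are inhibitors of RAS signalling. NF1 gave 10.26 and 10.19 on the probe used and 8.07 and 8.04 on its others. The kinases MAPK3, MAP2K1 and ARAF and the GTPase HRAS, at 8.59 and 8.50, were above both limits.

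The medium held hydrocortisone, and 13 of 14 genes known to be induced by glucocorticoids were above the lower limit, 7 above both and 6 in the brightest 10%. They were led by MT2A, MT1X at 10.80 on both arrays, the EGF receptor inhibitor ERRFI1 at 10.55 and 10.71, CEBPD, CEBPB and DUSP1. The classical targets PER1, at 7.37 and 7.40, and TSC22D3, at 7.51 and 7.57, were between the limits. With no array of cells without hydrocortisone, the part of the hormone in these levels was not tested.

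Among 25 tumour suppressors and cell cycle inhibitors, 22 were above the lower limit and 8 above both, RB1 giving 9.84 and 9.31, SMAD4 9.38 and 9.74 and CDKN1A 8.35 and 8.41. The 3 at background were neighbours in the genome. CDKN2A, which encodes the inhibitors p16 and p14ARF, gave 5.57 and 5.55, CDKN2B 5.97 and 5.77, and MTAP, an enzyme of methionine salvage that most cells use, 4.64 and 4.77.

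Proliferation genes were bright. Of 39 measured, 37 (94.9%) were above the lower limit and 26 (66.7%) above both, beside 63.8% and 21.4% of all genes. In the brightest 10% were 12, among them the mitotic kinase PLK1 at 10.65 and 10.46, TOP2A at 10.19 and 9.95, MKI67 at 9.66 and 9.57 and CCND1 at 9.71 and 9.27. CCNB1, at 8.87 and 8.74, was above both limits and CDK1, at 8.30 and 7.96, between them. Interferon-stimulated genes, usually low without interferon, were bright as well, with 27 of 29 (93.1%) above the lower limit, 16 (55.2%) above both and 11 (37.9%) in the brightest 10%. IFITM3 gave 11.75 and 11.86, IFI6 11.31 and 12.00, IFITM1 11.41 and 11.82, IFI44L 10.44 and 10.72, IFI27 10.45 and 10.55 and MX1 9.16 and 9.47. IFIT1, at 8.64 and 8.16, straddled the upper limit, and ISG15, at 7.53 and 7.23, was between the limits. Of 15 immune checkpoint ligands, 10 (66.7%) were above the lower limit and 4 (26.7%) above both, near the shares of all genes. These 4 were CD47, at 10.54 and 10.62, NT5E, CD276, at 9.74 and 9.48, and PVR, at 9.37 and 9.17. CD274 (PD-L1), at 8.37 and 8.16, straddled the upper limit, and PDCD1LG2, at 7.89 and 8.24, was under it.

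Markers of other tissues were described as well. Their lists were chosen with earlier results of these data known, so they do not test the label. All 10 milk protein and lactation genes were at background, from the casein gene CSN1S1 at 3.78 and 3.66 up to LTF at 6.08 and 5.76. Of 26 blood cell markers, 6 were above the lower limit and 1 above both, the lysosomal CD68, at 8.40 and 8.82, which other cells also make, and PTPRC, the common leukocyte antigen, gave 4.16 and 4.04 and CD3E 5.26 and 5.30. Of 18 endothelial markers, 9 were above the lower limit, among them SOX18, ERG and CLDN5, and ENG alone above both, while VWF, at 5.64 and 5.53, and CDH5, at 5.82 and 5.73, were at background. Of 13 hepatocyte markers, 2 were above the lower limit and SERPINA1, at 9.95 and 9.57, alone above both, with albumin, ALB, at 3.86 and 3.84. Above the lower limit were 3 of 17 neural markers, 1 of 6 melanocyte, 3 of 9 adipocyte and 4 of 10 intestinal and pancreatic markers, and none of these was above both.

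The germ cell and muscle lists also held members above both limits. Their shares above the lower and both limits, 15% and 5% of germ cell genes and 20% and 6.7% of muscle markers, lay under those of all genes. Of 40 germ cell and cancer-testis genes, 6 were above the lower limit and 33 under it on both arrays, and PAGE5, at 8.88 and 9.06, and MAGEC2, at 9.14 and 8.56, were above both limits, and CTAG2, at 8.31 and 8.08, and MAGEA8, at 8.12 and 8.02, lay near the upper one. Of 15 muscle markers, 3 were above the lower limit, namely the heart factor NKX2-5, at 8.85 on both arrays and above both limits, the filament gene DES, at 7.26 and 6.96, and MYOG, at 7.21 and 6.85. MYH7, CKM and MYOD1 were at background. Of 15 fibroblast markers, 8 were above the lower limit and 6 above both, namely POSTN, COL1A1, COL1A2, COL3A1, PDGFRA and PDPN, and DCN, LUM, OGN and MFAP5 at background.

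**Figure D4:**
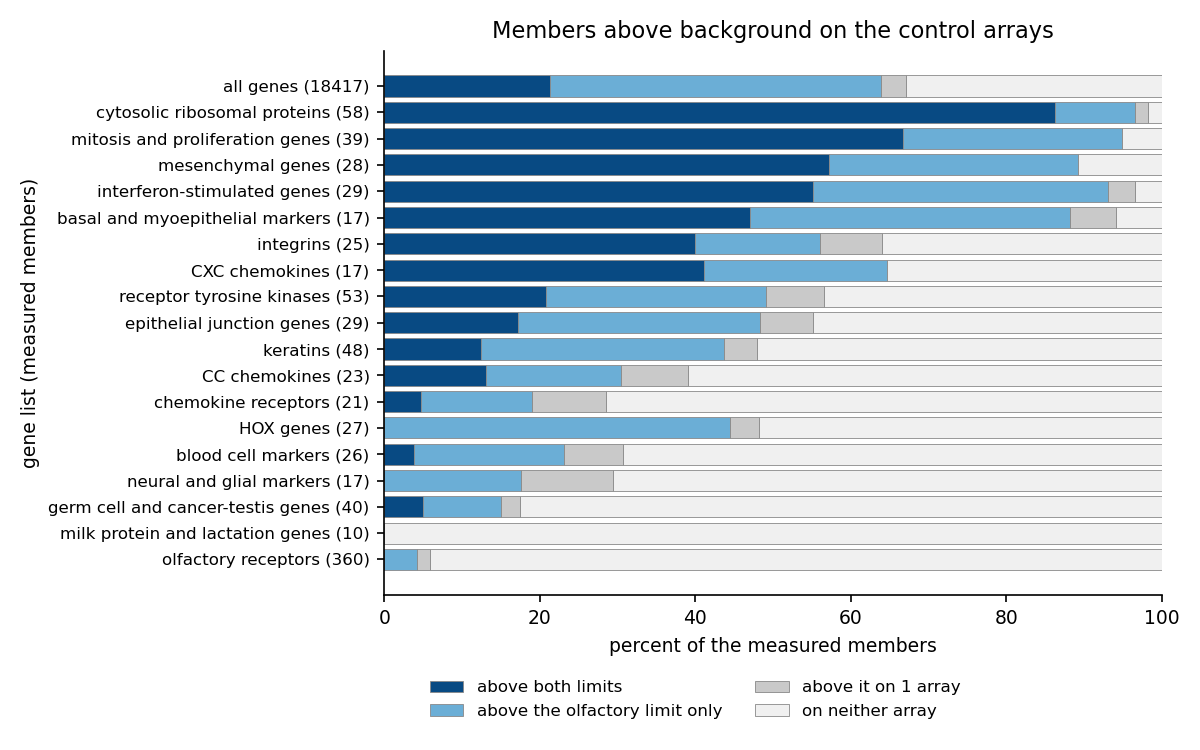
Percent of the measured members (x axis) of 17 gene lists, of all genes and of the olfactory receptors (y axis, members measured in brackets) that were above both limits, above the lower limit only, above it on 1 array or on neither. Beside 63.8% and 21.4% of all genes, mesenchymal genes had 25 and 16 of 28 above the lower and both limits, chemokine receptors 4 and 1 of 21, and milk protein genes 0 of 10.

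Of the 60 lists other than the silent families, 26 had a larger share of members above the lower limit than all genes did. The lists differ in length and gene type, and some genes stand in several lists, so these counts describe the lists and were not tested.

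The 2 control arrays agreed closely. Across 18417 genes, which are not independent replicates, Pearson's correlation was 0.992 and Spearman's 0.991, and the pooled SD between the arrays was 0.164 on the log2 scale. The median difference, replicate 2 minus replicate 1, was -0.02. The arrays were not copies, since 1797 of 33297 probes had identical values. With genes split by level into 10 groups of like size, the pooled SD ran from 0.122 in the dimmest to 0.182 in the eighth. Of 1842 genes, the size of the brightest 10%, 1676 (91.0%) were shared between the brightest 10% of each array ranked alone, as were 19 of the 25 brightest.

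A difference over 1 was found for 94 genes (0.510%), and 80 of these were above the lower limit on at least 1 array, 43 higher on replicate 1 and 37 on replicate 2. OR2C3 differed most, with 10.10 on replicate 1 and 6.14 on replicate 2, although it belongs to the olfactory receptors. FOXP2, a forkhead factor, gave 6.07 and 8.98, KCNT2, a potassium channel, 7.34 and 9.90, and COL24A1 6.69 and 8.95. TREM1, a receptor of myeloid cells, gave 6.99 and 9.12. Higher on replicate 1 were MAGEC1, at 8.34 and 6.12, the carbonic anhydrase CA2, at 7.90 and 5.72, the hedgehog inhibitor HHIP, at 9.55 and 7.52, SPECC1, at 8.24 and 6.23, and PODXL, at 10.36 and 8.48. With 1 array on each side, such genes have no settled resting level here.

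The genes over 1 apart included the secreted factors CXCL14, CCL5, DKK1, PDGFD, COL12A1, COL24A1, BGN and SERPINA3, and 11 of the 80 genes were above both limits. Gene lists also leaned to one array. Of 39 proliferation genes, 35 were higher on replicate 1, with a median difference of -0.18, whereas 13 of 17 AP-1 genes were higher on replicate 2, with a median of 0.16. Of 29 interferon-stimulated genes, 18 were higher on replicate 2 and 11 on replicate 1, and OASL, IFIT2 and RSAD2 were over 1 higher on replicate 1. Over all genes, 9994 were higher on replicate 1 and 7411 on replicate 2.

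**Figure D5:**
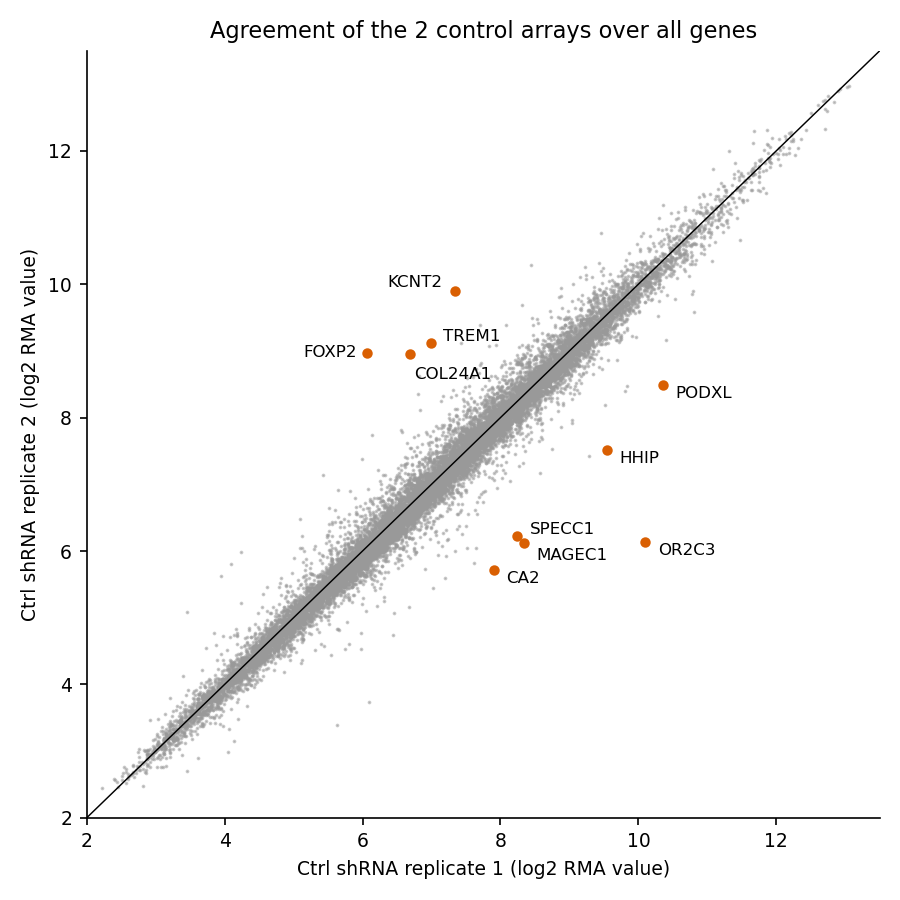
Log2 value of each of 18417 genes on replicate 1 (x axis) and replicate 2 (y axis), with the line of equality, and the 10 genes with the largest difference among those above the lower limit on at least 1 array marked and named. Most genes lay close to the line, with a pooled SD of 0.164, and OR2C3, FOXP2 and KCNT2 were the farthest from it among the marked genes.

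For some genes the probes differed by more than the arrays did. Of 769 genes with more than 1 probe, 96 had a probe over 1 brighter than the one used, and 30 of these would have passed the lower limit with it. Besides ZEB2, MALAT1, a long nuclear RNA, gave 7.42 and 7.61 on the probe used and 11.69 and 11.72 on the other, and PLCG2, a phospholipase of blood cells, 7.50 and 6.38 against 12.82 and 12.81. Of the 393 genes covered by the naming rule, 22 had more than 1 probe and 11 of these had probes over 1 apart.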

How the data were processed

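RNA of SUM159 cells with Ctrl shRNA was measured on 2 of 7 Human Gene 1.0 ST arrays. The authors made log2 values from all 7 scanner files together by robust multi-array averaging (RMA) in oligo, whose version the sources used here do not give. RMA subtracts background, gives every array the same distribution and combines the probes of a set. The deposited log2 values were used as given, so the control values also depend on the other arrays. The labels name an RNeasy extraction and the methods TRIzol.

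Symbols came from the platform annotation, updated by gene ID through RefSeq (GRCh38.p14), where 19429 of 19460 single-symbol probes matched. Another 1754 probes had several symbols and 12083 were not listed, and neither named a gene. Where a gene had several probes, the one whose interquartile range across all 7 arrays was largest was kept, following the study's methods. Background limits were 95th percentiles of silent families per array. The second limit was applied beside the first after the values were seen. Members and gene lists were chosen with earlier results of these data known, and list genes without a single-symbol probe were not analysed here. Named genes were the 25 brightest, the core genes of each list, up to 4 further bright members of each list other than the reference ones, and the 10 with the largest difference between arrays. Other genes named were chosen after their values were seen. Simulated arrays with known answers were run through the same steps beforehand. Python 3.11.15 with numpy 2.4.6, pandas 2.3.3, scipy 1.17.1 and matplotlib 3.10.9 was used. The number of arrays limits the precision.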

Additional observations from a re-analysis of the deposited data

How the results depend on the processing

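The count of genes above background depended on the silent reference. It was 11756 with olfactory receptors and 3935 with the other silent families, whose probes were brighter for a cause that was not tested. It was 12987 and 9504 at the 90th and 99th percentile of the olfactory receptors, 11810 with the probe of highest mean, 11750 with the mean of probes and 11203 over genes with 1 probe, and 11927 to 12180 on 1 array alone. The number of lists with a larger share above background than all genes was 26, and 25 to 30 under the alternatives. Against the other silent families, 50 of 60 list counts fell by more than 1.5 times. Pearson's correlation was 0.9925 over all probes, 0.9809 over genes above background, 0.9915 after another quantile normalization and 0.9916 with either other probe choice. The pooled SD was 0.1854, 0.1624, 0.1628, and 0.1634 and 0.1623. Centring each array left the correlation at 0.9915. Of the 393 levels, 8 moved by more than their SD with the probe of highest mean and 15 with the mean of probes. No paired analysis was possible because only 1 group was described. The planned count of promoter features by level was not run, since 77.3% of genes matched a promoter, under the 80% needed.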

Other observations

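CDKN2A lay within a run of 24 measured neighbours on chromosome 9, in RefSeq gene order from SLC24A2 to ELAVL2, none above the lower limit on both arrays. The run held 11 type I interferon genes, which are silent in most resting cells, but also MLLT3, at 4.25 on both arrays, FOCAD, at 4.84 and 4.85, HACD4, at 3.43 on both, KLHL9, at 5.25 and 5.39, and MTAP, along with MIR31, at 5.67 and 5.39, and its host MIR31HG, at 4.72 and 4.59. DMRTA1, at 6.31 and 6.18, was above the limit on 1 array. The nearest measured genes outside the run were ACER2, at 6.71 on both arrays, and TUSC1, at 6.72 and 6.79, both between the limits. Outward of ACER2 stood RPS6, a ribosomal protein, at 10.82 and 10.87, and DENND4C, at 7.58 and 7.64. PLIN2 came next, at background with 5.59 and 5.67. Outward of TUSC1 stood LINC03106, at background with 4.32 and 4.01, then CAAP1, at 6.33 and 6.70, and PLAA, at 8.91 and 8.76. The other runs of at least this length held olfactory receptors on chromosomes 11 and 1, with 49 and 34 genes, and SNORD115 and SNORD116 genes on chromosome 15, with 25. Slightly shorter runs without olfactory receptors included 22 genes from TMPRSS11E to MUC7 on chromosome 4 and 20 from KLRG1 to TMEM52B on chromosome 12. These runs were sought after the values of CDKN2A and MTAP were seen, and copy number was not measured.

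Several bright genes outside the lists were chosen after their values were seen. C3, the central complement protein, gave 11.25 and 11.47, the galectin LGALS1 12.09 and 12.06, LCP1, an actin bundler best known from leukocytes, 11.86 and 12.10, and the IGF-binding proteins IGFBP4 and IGFBP7 gave 11.55 and 11.56, and 11.45 and 11.29. NFKBIA, the inhibitor that NF-kB itself induces, gave 10.23 and 10.37, TNFAIP3 9.24 and 9.40 and the mitochondrial superoxide dismutase SOD2 10.07 and 10.29. Among small nucleolar RNAs, SNORD116-15, from an imprinted region, gave 11.25 and 11.32 and SNORD116-14 9.99 and 10.15, while the 25 genes of the chromosome 15 run were not above the lower limit on both arrays.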
